A study of Mus musculus with 16 samples.

Results

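The transcripts described here are those of 10 mouse genes for histone variants: Hist1h1t, Hist1h2aa, Hist1h2ba, H2afx, H2afz, H2afy, H3f3a, H3f3b, H1f0 and H1fx. They were taken by Ensembl gene ID, without its version suffix, through the GENCODE M21 names. All 10 were found, among 55414 gene IDs of which 52081 had a name. Per GENCODE M21, Hist1h1t, Hist1h2aa, Hist1h2ba and H2afy lie on chromosome 13, H2afx on 9, H2afz on 3, H3f3a on 1, H3f3b on 11, H1f0 on 15 and H1fx on 6, all as protein-coding genes. Histone variants replace the standard histones, which are made mostly during S phase, and they change how tightly or in which state DNA is packed. Male germ cells use several that other tissues hardly use, and they swap them in as meiosis proceeds, before transition proteins and protamines take over in spermatids. Hist1h1t encodes H1t, a linker histone of spermatocytes, and Hist1h2aa and Hist1h2ba encode the testis H2A and H2B (TH2A and TH2B). H2afx encodes H2AX, whose phosphorylated form marks DNA breaks and the silenced X and Y chromosomes of the sex body. H2afz encodes H2A.Z, H2afy encodes macroH2A1, H3f3a and H3f3b both encode H3.3, and H1f0 and H1fx encode linker histones that are made outside S phase.

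Testis RNA came from mice at postnatal day 14 (P14) or 16 (P16), while the earliest wave of germ cells is in meiosis. The groups were control, Cre control and conditional knockout (cKO) of Ythdc2, which encodes an RNA helicase that meiotic germ cells need; the series' title concerns its later role in spermatocytes. Per the labels, mice of all groups had been given tamoxifen (10 mg per ml) on both P12 and P13. The column names give the control libraries as WT and the Cre control libraries as Ctrl. The labels name neither the Cre driver nor the alleles of these control types. Each age had 2 control and 3 cKO libraries, and the Cre control had 2 libraries at P14 and 4 at P16. The control libraries and cKO libraries 1 and 2 were depleted of ribosomal RNA with Ribo-Zero components (the first kit), and NEBNext depletion reagents (the second kit) served for cKO library 3 of each age and for every Cre control. Nothing states that libraries of a group came from separate animals, so p-values measure only the spread between these libraries, which may be technical.

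Libraries of the first kit held 22220565 to 27531529 reads on genes, those of the second kit held 14494867 to 23200252, and any member had 477 to 62105 reads in any library. Ythdc2 itself stood at 32.9% of the control mean in cKO at P14 and at 19.8% at P16, and the third cKO library held 23.0% and 12.3% of the Cre control mean. Sertoli, spermatogonial and meiotic prophase markers were all above 10 in every group of the first kit; the label testis was checked on these. The protamine genes Prm1 and Prm2 and the transition protein genes Tnp1 and Tnp2 were below 10, so these spermatid markers were at or near 0. Values below are the deposited normalized counts unless CPM (counts scaled to library size with TMM) is named. A gene is termed called where limma gave a Benjamini-Hochberg adjusted p under 0.05, and changes are differences on the log2(value + 1) scale.

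Hist1h2aa and Hist1h2ba lie head to head on chromosome 13, and their starts are 281 bases apart in the RefSeq promoter table (build GRCm38.p6). Their promoter windows, 250 bases before to 50 after each start, share 220 bases. The window of Hist1h2aa is shown because this gene and Hist1h2ba were both lower in cKO than in control at P16, in the first kit only. That of Hist1h1t is shown because it lies in the same histone cluster and fell less in cKO in that comparison. The coordinates are those of the RefSeq table only, since the submitters' processing notes name GRCm39 for the reads. Hist1h2aa is at chr13:23934187-23934486 on the plus strand, Hist1h2ba at chr13:23934107-23934406 on the minus strand, and Hist1h1t at chr13:23695561-23695860 on the plus strand. Capitals mark the CCAAT motif, the TATAAA motif and the AAACACA motif on either strand.
Hist1h2aa: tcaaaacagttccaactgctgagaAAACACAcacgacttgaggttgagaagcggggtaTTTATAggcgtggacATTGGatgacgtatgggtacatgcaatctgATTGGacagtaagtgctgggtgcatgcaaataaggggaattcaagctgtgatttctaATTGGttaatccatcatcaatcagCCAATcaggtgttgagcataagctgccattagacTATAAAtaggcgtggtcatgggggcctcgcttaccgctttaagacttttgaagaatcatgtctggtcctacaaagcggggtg
Hist1h1t: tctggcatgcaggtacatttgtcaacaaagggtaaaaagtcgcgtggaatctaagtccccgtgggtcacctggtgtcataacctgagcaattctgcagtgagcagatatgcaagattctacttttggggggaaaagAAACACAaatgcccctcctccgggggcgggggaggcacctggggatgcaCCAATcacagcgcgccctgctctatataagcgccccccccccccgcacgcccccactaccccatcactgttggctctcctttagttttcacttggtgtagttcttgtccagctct
The Hist1h2aa window holds 4 matches to CCAAT, 2 to TATAAA and 1 to AAACACA. The window of Hist1h2ba, read from the other strand, holds 4, 1 and 1. That of Hist1h1t holds 1 match to CCAAT, none to TATAAA and 1 to AAACACA. Among 32851 promoter windows of the same length, 37.4% held CCAAT, 13.6% TATAAA and 7.18% AAACACA. Of the 9 members with an entry in the table, 6 held CCAAT, 3 TATAAA and 4 AAACACA. Every match in the Hist1h2ba window lies in the bases shared with Hist1h2aa and is the same site. That pair therefore enters each of these counts with the same sites and is not independent. A match describes letters and is not a binding site.

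Most histone mRNAs made in S phase end in a stem-loop in place of a poly(A) tail. The GENCODE M21 transcripts of 2 members carry a match to the histone stem-loop consensus, and these are shown because they mark that mRNA class.
H2afx: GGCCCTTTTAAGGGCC
Hist1h1t: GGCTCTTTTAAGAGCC
Such a match was present in 48 of 21901 protein-coding genes, or 0.219%. The transcripts of Hist1h2aa and Hist1h2ba hold only coding sequence in that annotation, so their ends could not be read. RNA had been depleted of ribosomal RNA and not selected for poly(A), so both kinds of mRNA could be counted.

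Per kilobase of exon (GENCODE M21), Hist1h2ba had the highest control level at P16, at 150038 ± 4011 (SD, n = 2), and Hist1h2aa came next at 37794 ± 2874. H2afx stood at 19634 ± 646, H3f3b at 8415 ± 224 and Hist1h1t at 7034 ± 380. H2afz followed at 2077 ± 35, H3f3a at 1311 ± 38, H1f0 at 922 ± 46, H1fx at 619 ± 26 and H2afy at 419 ± 9.1. No neighbours in this order overlapped in their 2 control libraries. The 2 testis genes at the top have annotated lengths of 384 and 390 bases, coding sequence only, so their levels per length are overstated, and the 6809 bases of H2afy include retained introns, so its level is understated.

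At P16, 6 of the 10 members were called between cKO and control, 5 lower and 1 higher, while 38.6% of all 17986 genes tested were called. The members' median log2 change was -0.17, against a median of -0.00 over all genes tested. A share of 6 in 10 on a background this large says little about the set, and the sizes differed widely from gene to gene. H2afx and Hist1h2aa fell most, Hist1h2ba, H1fx and Hist1h1t less, and H2afy rose slightly. In bulk testis RNA, fewer cells of a type and less RNA per cell cannot be told apart.

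**Figure D1:**
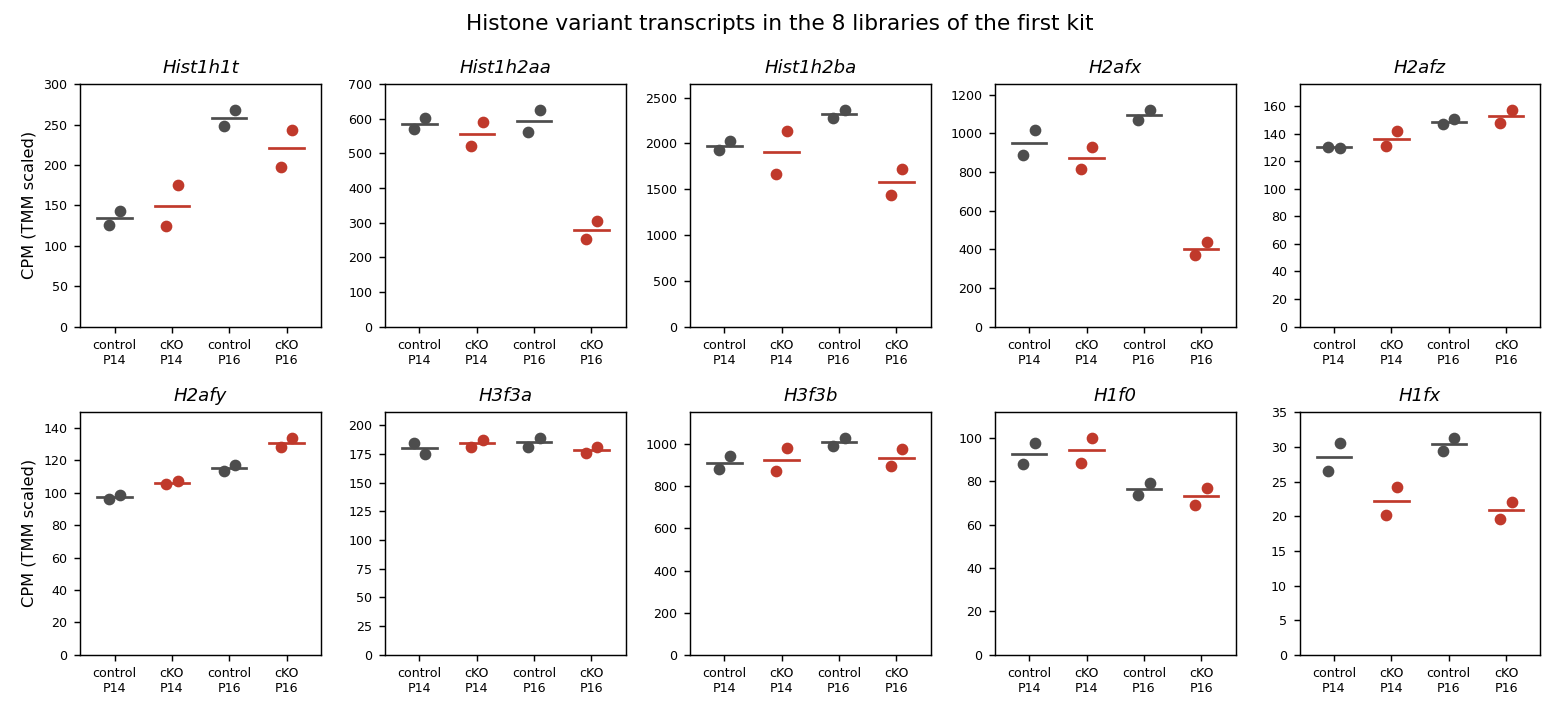
Levels of the 10 histone variants in CPM (TMM scaled, linear axes from 0) in the 8 libraries of the first kit; points are libraries, bars are group means, grey is control and red is cKO. At P16 the cKO points of H2afx (367.8 and 435.4 CPM) and Hist1h2aa (252.0 and 306.3 CPM) lie far below both controls, while those of H3f3a, H2afz and H1f0 lie near them.

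H2afx (ENSMUSG00000049932), the gene for the break-marking H2AX, stood at 26541 and 27806 in the P16 controls and at 9156 and 10765 in cKO. Both cKO libraries were far below both controls, at 36.7% of the control mean. Its change at P16 was -1.45 (limma SE 0.061, adjusted p = 9.06e-09). At P14 the values were 20258 and 23158 in controls and 18666 and 21318 in cKO, so the groups overlapped, and the change was -0.12 (95% interval -0.33 to 0.09, limma adjusted p = 1.00). The H2afx effect differed between the ages by -1.32 (SE 0.131, limma adjusted p = 0.000785).

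Hist1h2aa (ENSMUSG00000060081), the gene for TH2A, stood at 13947 and 15532 in the P16 controls and at 6274 and 7572 in cKO. The groups did not overlap, and cKO was at 47.0% of the control mean. Its change at P16 was -1.09 (limma SE 0.073, adjusted p = 4.46e-07). Its P14 values were 13056 and 13735 in controls and 11974 and 13568 in cKO, where the groups overlapped and the change was -0.07 (95% interval -0.24 to 0.10). The difference between the ages was -1.01 (SE 0.133, limma adjusted p = 0.00335).

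Hist1h2ba (ENSMUSG00000050799), the gene for TH2B and the neighbour of Hist1h2aa, stood at 56526 and 58704 in the P16 controls and at 35690 and 42405 in cKO. The groups did not overlap, and cKO was at 67.8% of the control mean. This is a difference of -0.57 on the log2 scale (SE 0.064, limma adjusted p = 2.76e-05). At P14 the values were 43999 and 46299 in controls against 38241 and 48915 in cKO, which lay on both sides of the controls. The P14 change was -0.06 (95% interval -0.33 to 0.21), and the difference between the ages was -0.49 (SE 0.155, limma adjusted p = 0.0852), which is not called. That difference was called with the replicate number as a block (limma adjusted p = 0.0123) and without cKO replicate 1 of P14 (-0.68). The fall of Hist1h2ba was thus the smaller of the pair. The ratio of Hist1h2ba to Hist1h2aa reads was 3.37 in both P14 controls, 3.78 and 4.05 in the P16 controls, and 5.60 and 5.69 in the P16 cKO libraries. In the second kit that ratio was 4.93 to 5.48 in the P16 Cre controls and 4.80 in the third cKO library, so the cKO ratio was not the higher one there.

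Hist1h1t (ENSMUSG00000036211), the gene for the spermatocyte linker H1t, stood at 6170 and 6660 in the P16 controls and at 4918 and 6023 in cKO. The groups did not overlap, though the highest cKO value was close to the lowest control, and its log2 change was -0.24 (limma, SE 0.074, adjusted p = 0.0231). This call was lost without control replicate 2 (adjusted p = 0.159), without cKO replicate 1 (log2 change -0.09, adjusted p = 0.117) and with DESeq2 (adjusted p = 0.282). At P14 the controls had 2885 and 3276 and cKO had 2851 and 4016, with a change of 0.14 (95% interval -0.23 to 0.51). The difference between the ages, -0.36 (SE 0.207, limma adjusted p = 0.315), is not called.

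Of the H2A variants found in most cell types, H2afz (H2A.Z, placed at promoters) stood at 3644 and 3733 in the P16 controls and at 3674 and 3893 in cKO. The groups overlapped, and the change was 0.04 (95% interval -0.06 to 0.14, limma adjusted p = 0.573). At P14 it stood at 2963 and 2990 in controls and at 3000 and 3256 in cKO, a change of 0.07 (95% interval -0.07 to 0.21). H2afy (macroH2A1, known from silent chromatin including the inactive X) stood at 2811 and 2898 in controls and at 3189 and 3308 in cKO. It was the member that rose, by 0.19 on the log2 scale (SE 0.046, limma adjusted p = 0.0066), with no overlap. At P14 both cKO values of H2afy, 2416 and 2457, were also above both control values, 2205 and 2256, but the change of 0.13 is not called (limma adjusted p = 1.00). The call of H2afy at P16 was lost without control replicate 1 (log2 change 0.16) and without the eBayes trend (limma adjusted p = 0.11). In the second kit, the third cKO library had 2351 for H2afy at P16, inside the Cre control range of 2215 to 2729. The rise of H2afy at P16 thus rests on the control libraries of the first kit.

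Neither of the H3.3 genes, whose protein is laid down independently of DNA replication, was called. H3f3a stood at 4499 and 4688 in the P16 controls and at 4390 and 4489 in cKO, a log2 change of -0.05 (95% interval -0.14 to 0.05, limma adjusted p = 0.405). H3f3b, the more abundant H3.3 gene per length, stood at 24572 and 25513 in controls and at 22271 and 24087 in cKO. Its change was -0.11 (95% interval -0.21 to -0.01, limma adjusted p = 0.0666). That change was called with the replicate number as a block (limma adjusted p = 0.016) and without cKO replicate 2 (-0.17). In both genes the cKO libraries lay below the controls at P16, and at P14 the groups overlapped in both, with changes of 0.04 (95% interval -0.09 to 0.16) for H3f3a and 0.03 (95% interval -0.14 to 0.20) for H3f3b. In the first kit these P16 intervals lie nearer 0 than those of H2afx and Hist1h2aa.

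Of the linker histones outside S phase, H1f0 (H1.0, abundant in cells that have stopped dividing) stood at 1829 and 1962 in the P16 controls and at 1715 and 1903 in cKO. These overlapped, with a log2 change of -0.07 (95% interval -0.20 to 0.06, limma adjusted p = 0.404), and at P14 its change was 0.03 (95% interval -0.17 to 0.22). H1fx (H1X) stood at 730.5 and 776.0 in controls and at 488.1 and 546.9 in cKO, which did not overlap. Its change was -0.54 (SE 0.078, limma adjusted p = 0.000168). At P14 its values were 608.2 and 696.8 in controls against 463.2 and 556.3 in cKO, which did not overlap either. That P14 change of -0.36 (limma adjusted p = 1.00) is not called, and neither is the difference between the ages (-0.17, SE 0.153, limma adjusted p = 0.528).

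Over the members, 0 of 10 were called at P14, where 0.00579% of 17270 genes tested were called (1 gene, Ythdc2). At an unadjusted limma p under 0.05, 2 members and 410 genes passed at P14, and edgeR called 0 members and 1 gene. In the test of the difference between the ages, 2 of 10 members were called, H2afx and Hist1h2aa, against 7.5% of 18469 genes.

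**Figure D2:**
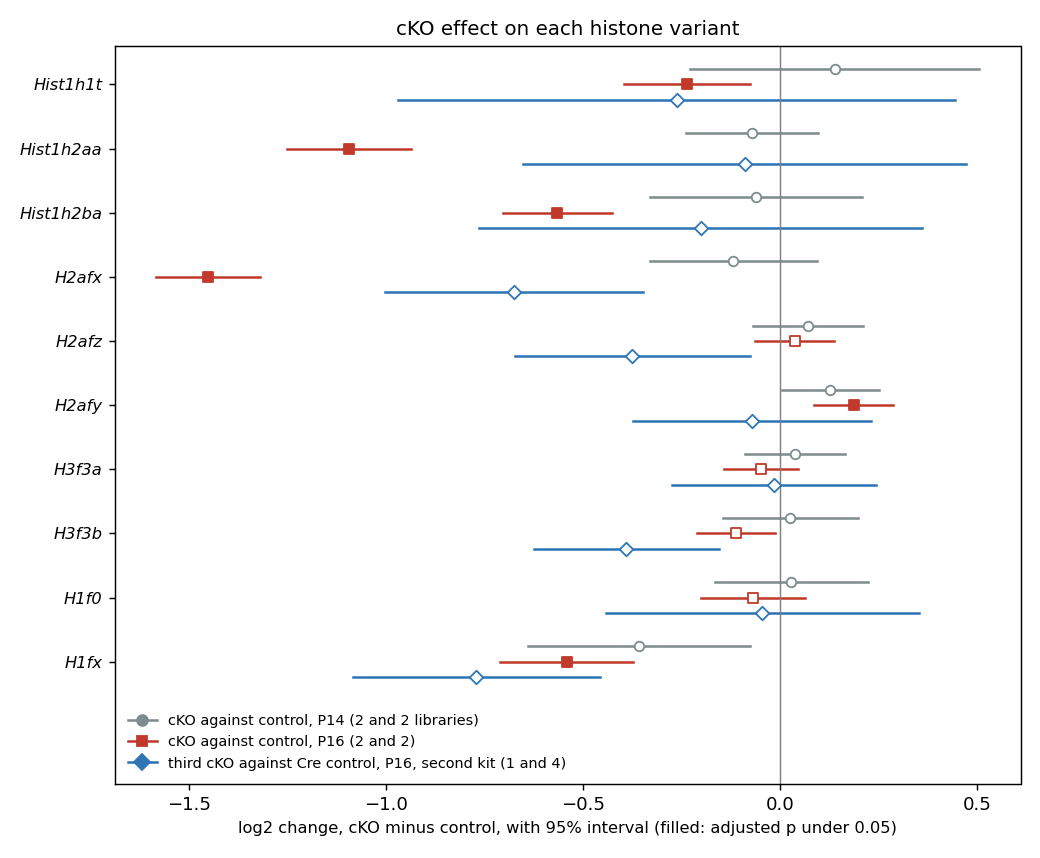
Log2 change of each histone variant (horizontal axis, cKO minus control, with its 95% interval) at P14 in grey, at P16 in red, both on the log2(value + 1) scale, and for the third cKO library against the Cre controls at P16 in blue, on the log2 CPM scale. Filled symbols are called; the red squares of H2afx (-1.45) and Hist1h2aa (-1.09) lie apart from every other interval of those genes, and no grey or blue symbol is filled.

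The course from P14 to P16 was followed on log2 CPM within a kit, since the ages were scaled in separate tables. In controls, 4 of 10 members were called, 3 higher and 1 lower at P16, against 20% of 18469 genes. Hist1h1t rose most, from 126.1 and 143.6 CPM to 248.8 and 268.7 CPM, a log2 change of 0.95 (limma, SE 0.146, adjusted p = 0.00174). H2afy rose by 0.25 (limma adjusted p = 0.00523) and H2afz by 0.20 (limma adjusted p = 0.0277), and H1f0 changed by -0.26 (limma adjusted p = 0.0476). The calls of H2afz and H1f0 were lost when any 1 of the 4 control libraries was left out, and that of H2afy without P16 control replicate 2. Hist1h2aa did not pass, with a change of 0.03 (95% interval -0.18 to 0.24), and H2afx (0.22, limma adjusted p = 0.125) and Hist1h2ba (0.25, limma adjusted p = 0.148) did not either.

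In cKO, 6 of 10 members were called from P14 to P16, 3 higher and 3 lower, against 29.9% of 18469 genes. H2afx fell from 814.0 and 930.4 CPM to 367.8 and 435.4 CPM, a log2 change of -1.10 (limma, SE 0.092, adjusted p = 6.06e-05). Hist1h2aa fell from 522.2 and 592.2 CPM to 252.0 and 306.3 CPM, a change of -0.98 (SE 0.094, limma adjusted p = 0.000102). In both genes the P16 cKO libraries were thus below the P14 cKO libraries. In controls the changes were 0.22 for H2afx and 0.03 for Hist1h2aa, neither called. For Hist1h2aa, 1 P16 control (562.4 CPM) was below both P14 controls (570.8 and 601.9 CPM). Hist1h1t still rose in cKO, by 0.59 (SE 0.146, limma adjusted p = 0.0131), H2afy by 0.32 (limma adjusted p = 0.000878) and H2afz by 0.18 (limma adjusted p = 0.031). H1f0 fell by 0.35 on the log2 scale (limma adjusted p = 0.0106). The calls of Hist1h1t and H2afz were lost without cKO replicate 2 of P16, that of H2afz also without cKO replicate 1 of P14, and that of H1f0 without cKO replicate 1 of P16. These control and cKO changes are 2 contrasts of 1 fit, and the tests of their difference are those given above.

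In the Cre controls, 2 of 10 members were called from P14 to P16, both higher, against 10.8% of 19541 genes. Hist1h1t rose by 1.20 (SE 0.247, limma adjusted p = 0.012), from 105.2 and 124.7 CPM to a range of 198.6 to 396.7 CPM over 4 libraries. H2afz rose by 0.43 (SE 0.104, limma adjusted p = 0.0258). Hist1h1t lost its call without P14 replicate 1, and H2afz lost it on leaving out 4 of the 6 libraries in turn. Hist1h2aa changed here by -0.44 (95% interval -0.87 to -0.00, limma adjusted p = 0.185), which is not called, while the control group had 0.03. Without P16 replicate 1, Hist1h2aa was called lower (-0.60). H2afx changed by -0.18 (95% interval -0.43 to 0.08), which is not called. It stood at 1191 and 1316 CPM at P14 and at 929.2 to 1215 CPM at P16. Cre control P16 replicate 1 was the highest of the 4, though not so far as to pass a test for an outlying library: it had 8061 for Hist1h2aa, against 4830 to 5554 in replicates 2 to 4, and 8311 for Hist1h1t against 4161 to 5288. Per the column names, that library was sequenced with the P14 Cre controls and the third cKO libraries, and replicates 2 to 4 in another run. Run and library cannot be told apart here.

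**Figure D3:**
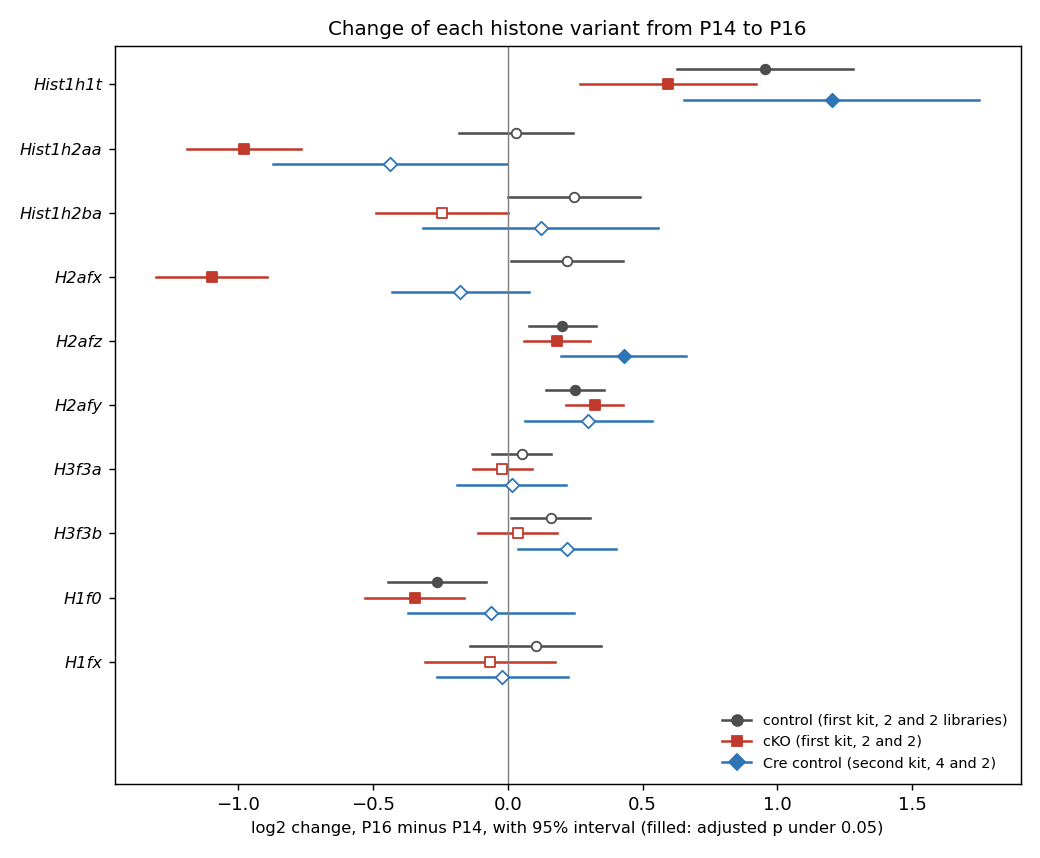
Log2 CPM change from P14 to P16 (horizontal axis, with 95% interval) of each histone variant in control (grey), cKO (red) and Cre control (blue); filled symbols are called. Hist1h1t lies to the right of 0 in the 3 groups, while H2afx (-1.10) and Hist1h2aa (-0.98) lie far to the left in cKO.

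Against the Cre controls, 3 of 10 members were called at P16, all lower in cKO: H2afx, H2afz and H1fx, against 9.07% of 19200 genes. Only the third of the 3 cKO libraries shares the kit of these controls, and it stood apart from the others in several members. In cKO at P16, the library of the second kit had 2.54 times the mean CPM of the first kit for H1fx, 1.88 times for H3f3a, 1.65 times for H2afx and 0.660 times for H3f3b. The H1fx change of -1.70 (SE 0.323, limma adjusted p = 0.0379) therefore covers libraries of different kits. In that table H1fx stood at 1737 to 2019 in the Cre controls, at 399.8 and 450.8 in cKO libraries 1 and 2 and at 1104 in the third cKO library. For H3f3a, cKO libraries 1 and 2 had 3596 and 3701, the third had 7000, and the Cre controls had 6746 to 7531, and kit and sequencing run differ together between these libraries. H2afx stood at 19469 to 25441 in the Cre controls, at 7499 and 8875 in cKO libraries 1 and 2 and at 13793 in the third, with a change of -1.19 (SE 0.204, limma adjusted p = 0.0367). These 3 calls were each lost on leaving out any 1 Cre control library or cKO library 1 or 2, and with kit as a covariate 0 members were called.

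The second kit allows a comparison within 1 kit, in which the third cKO library was set against the Cre controls alone. This fit was chosen after seeing the data, and in it the single library is assumed to vary like the other groups. At P16 no member was called, on a background of 0.00512% of 19541 genes (1 gene), while 2507 genes passed at an unadjusted p under 0.05. H2afx in the third cKO library was below all 4 Cre controls, at 61.8% of their mean, with a log2 CPM change of -0.68 (95% interval -1.0 to -0.35, limma adjusted p = 0.236). H1fx was at 58.0% of their mean, a change of -0.77 (95% interval -1.09 to -0.46, limma adjusted p = 0.236), H3f3b at 75.6% (change -0.39, limma adjusted p = 0.259) and H2afz at 76.3% (change -0.38, limma adjusted p = 0.317). For Hist1h2aa, the third cKO library had 5400, inside the Cre control range of 4830 to 8061, with a change of -0.09 (95% interval -0.65 to 0.47). Hist1h2ba, at 25946, was likewise inside its range of 23795 to 41752. Set against the Cre control replicate of its own run alone, the third cKO library had 67.0% for Hist1h2aa and 62.1% for Hist1h2ba. It had 54.2% for H2afx and 52.5% for Hist1h1t, with no replicate check. That Cre control replicate was the highest of the P16 Cre controls for each of these genes. The other members ranged from 54.7% (H1fx) to 94.8% (H2afy).

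The cKO effect at P16 was smaller in value in the second kit for H2afx, by 0.78 on the log2 scale (first kit minus second, -0.78, SE 0.165, limma adjusted p = 0.153), and for Hist1h2aa (-1.0, SE 0.286, limma adjusted p = 0.288). No member was called in this test of the difference between kits, also chosen after seeing the data, which called 0.0432% of 20829 genes (9 genes) and passed 2060 at an unadjusted p under 0.05. Kit, control type and run differ together between these effects and cannot be told apart. The fall of Hist1h2aa and Hist1h2ba at P16 thus rests on the control libraries of the first kit. H2afx, H1fx and H3f3b were below all their controls in both kits, H3f3b without a call in either of the fits reported. The share of all genes below every control in both kits was not computed, so these values describe single genes only.

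**Figure D4:**
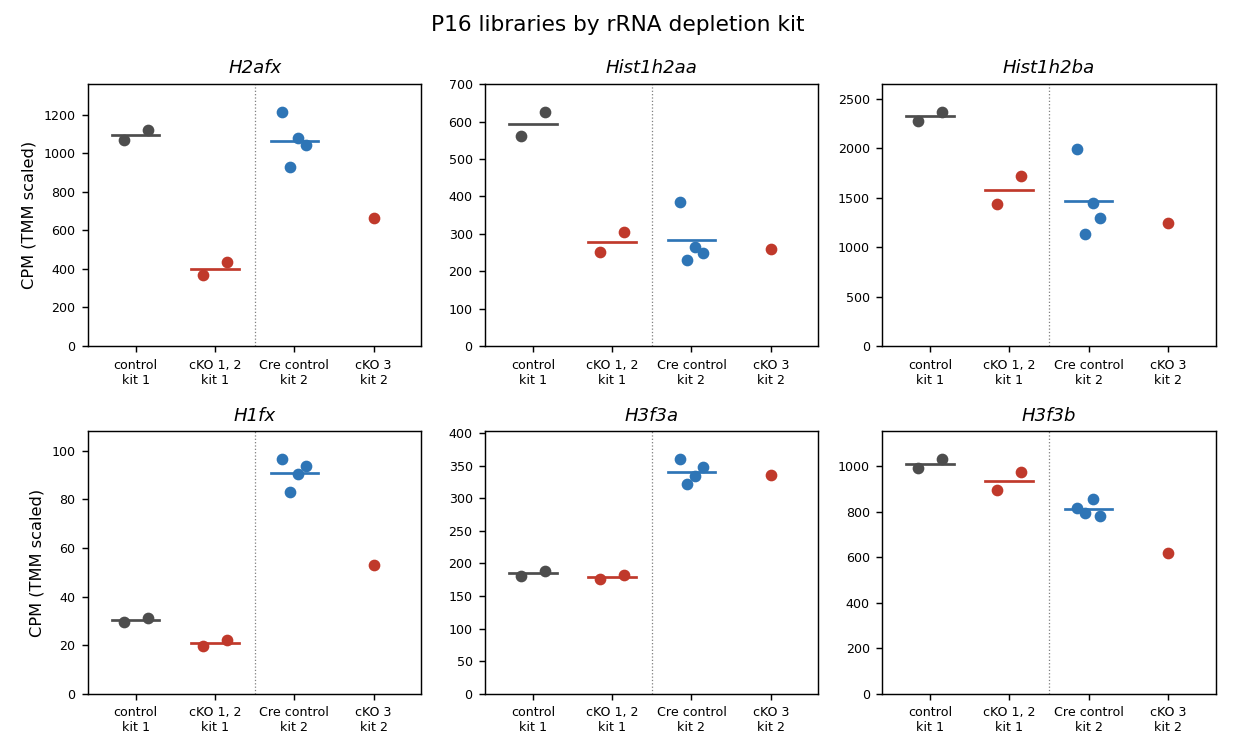
CPM (TMM scaled over all libraries, linear axes from 0) of 6 histone variants in the P16 libraries, with the first kit left and the second kit right of the dotted line; points are libraries and bars are means. H2afx and H1fx are lower in cKO on both sides, the cKO point of Hist1h2aa lies below both controls on the left and inside the range of the Cre controls on the right, and H3f3a is near 180 CPM in every library on the left and above 300 CPM in every library on the right.

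At P14, 0 of 10 members were called against the Cre controls, where 0% of 18196 genes were called with limma, 705 genes and 1 member (H1f0) passed at an unadjusted p under 0.05, and edgeR called 0 genes. Within the second kit, the third P14 cKO library gave 0 calls among members and 0% among 19541 genes, with 478 at an unadjusted p under 0.05. H2afx there stood at 23169, between the Cre control values of 22136 and 24413, and Hist1h2aa at 8067, between 6401 and 8259. In neither kit was H2afx or Hist1h2aa outside the range of its P14 controls in every cKO library.

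Other genes of histone exchange were read from lists drawn up with earlier results of these data known. The 5 somatic linker H1 genes, which H1t joins in spermatocytes, fell at P16 in 4 cases (median log2 change -0.67 over the 5), while 3587 of 17986 genes tested were called lower. From P14 to P16 with no knockout, 3 of the 5 also fell in the Cre controls (median -0.66), where 510 of 19541 genes were called lower. In the controls of the first kit 0 of 5 were called, where 20% of 18469 genes were called in either direction. Hist1h1a stood at 36962 and 40535 in controls and at 13120 and 14922 in cKO, a change of -1.47 (SE 0.059, limma adjusted p = 5.81e-09). Hist1h1c changed by -1.03, Hist1h1d by -0.67 and Hist1h1e by -0.34, all called, and Hist1h1b by -0.26 (limma adjusted p = 0.0915). The difference between the ages was called for Hist1h1a (-1.39), Hist1h1c (-0.99) and Hist1h1d (-0.71), where 841 of 18469 genes were called lower. Summed over the 5, somatic linker H1 stood at 55787 to 60834 in the P16 controls and at 24184 to 26718 in cKO. Since Hist1h1t changed far less, its reads came to 10.9% and 11.1% of the somatic linker H1 reads in the P16 controls and to 20.3% and 22.5% in cKO, after 5.08% to 7.22% in the 4 P14 libraries of the first kit. In the second kit at P16 this share was 14.6% to 27.1% in the Cre controls and 15.6% in the third cKO library, so cKO was not the higher there. None of the 5 linker genes was called against the Cre controls, on a background of 9.07% of 19200 genes at P16.

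Of 13 other variants, 5 were abundant enough to test at P16 and 3 of them fell: H2bfm, an H2B variant gene (-0.68, limma adjusted p = 0.00102), Cenpa, the centromeric H3 (-0.29, limma adjusted p = 0.00424), and H2afv, the second H2A.Z gene (-0.25, limma adjusted p = 0.00163). Among all 17986 genes tested there, 3587 were called lower. Against the Cre controls at P16, 6 variants of this list were tested and 0 called (median -0.17), on a background of 9.07% of 19200 genes. The remaining variants, H2afb1, H2afb2, H2afb3, H2al2a, H1fnt, Hils1, H1foo and H3f3c, were below 10 in every group of the first kit. None of the 5 transition protein and protamine genes reached the minimum for a test.

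Of 25 chaperones and exchange factors, 9 fell and 2 rose at P16 (median -0.08). The share called in either direction was near the 38.6% of all 17986 genes tested (3352 higher and 3587 lower). Falls outnumbered rises more in this list than among all genes, which was not tested. The single genes are given as values. Asf1b, which hands H3 and H4 to the assembly factors, changed by -0.66 (SE 0.048, limma adjusted p = 9.44e-07), Chaf1a, a subunit of the replication-coupled assembly factor CAF-1, by -0.44 and Nasp, a linker and H3 chaperone, by -0.39. Atrx, which with Daxx places H3.3 in repeats, rose by 0.29 (limma adjusted p = 0.000613). Hira, Ubn1, Cabin1 and Daxx, which serve H3.3 as the product of H3f3a and H3f3b, were not called.

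Of 18 genes that act on or with H2AX and in the sex body, 14 fell and none rose at P16 (median -0.25), while 3587 of all 17986 genes tested were called lower. Against the Cre controls at P16, 2 of the 18 were called, both lower, on a background of 9.07% of 19200 genes (916 lower). Atm, a kinase that phosphorylates H2AX at breaks, changed by -0.67 (SE 0.049, limma adjusted p = 1.03e-06), and Setdb1, Wrap53 and Brca1 by -0.44 each. Each of these changes was less than that of H2afx itself in value. Atr, the kinase of the sex body, was not called (-0.09), and Mdc1, which spreads the H2AX mark, changed by -0.22.

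**Figure D5:**
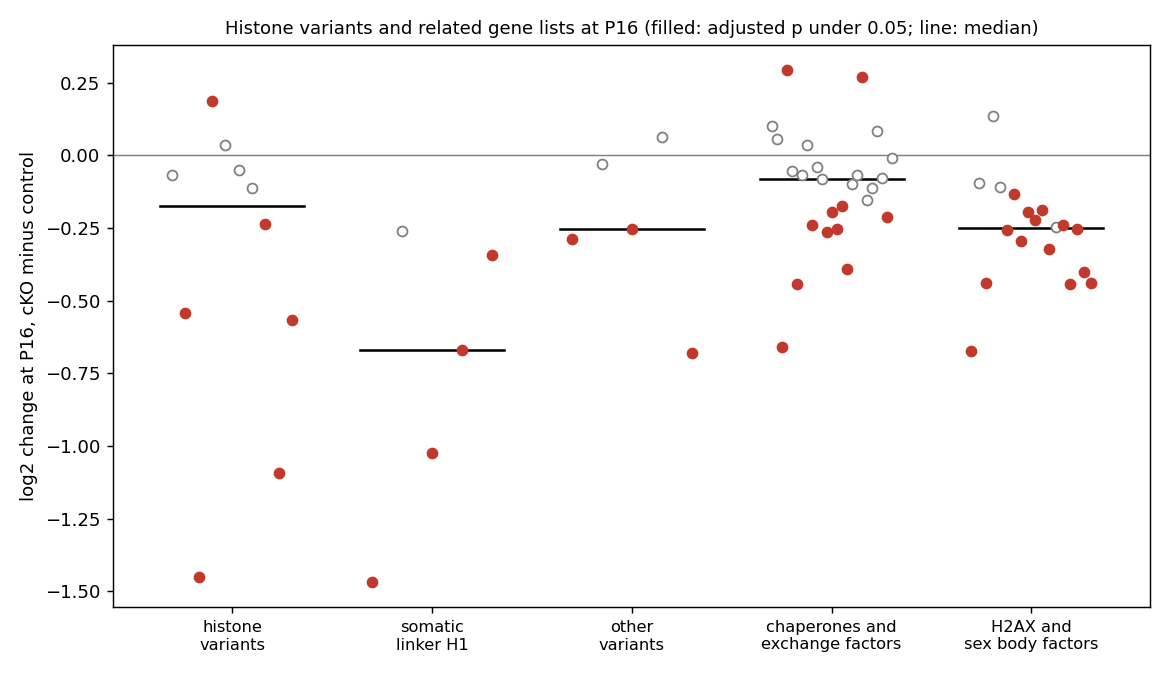
Log2 change at P16 (vertical axis, cKO minus control, log2(value + 1) scale) of the 10 histone variants and of the tested genes in 4 related lists; each point is a gene, filled where called, and the line is the list's median. The somatic linker H1 genes (median -0.67) reach as low as H2afx, and the chaperones (median -0.08) lie nearer 0.

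Markers of the cell types in the testis moved with these results, on the same background of 38.6% of genes called at P16 (3352 higher and 3587 lower of 17986). Spermatogonial markers fell in 9 of 10 cases at P16 (median -0.42), with a summed level of 20454 to 20662 in controls and 14912 to 15353 in cKO. Early meiotic prophase markers fell in 9 of 10 (median -0.39), from 69533 to 72910 in controls to 54331 to 59255 in cKO. Of 12 pachytene and later markers, 6 rose and 1 fell (median 0.17), with sums of 49302 to 49828 and 53471 to 59003. Sertoli cell markers rose in 7 of 10 (median 0.28) and macrophage markers in 5 of 6 (median 0.73), with macrophage sums of 1249 to 1339 in controls and 1941 to 2028 in cKO. Single markers fell as far as the members did: Prdm9, a meiotic recombination factor, changed by -1.63 and Stra8, which marks the entry into meiosis, by -1.10, beside -1.45 for H2afx and -1.09 for Hist1h2aa. Leydig cell markers rose in 2 of 5 tested, peritubular myoid markers in 1 of 5 and round spermatid markers in 1 of 2. At P14 none of these marker genes was called. Against the Cre controls at P16, 0 of 10 spermatogonial and 1 of 10 early prophase markers were called, on a background of 9.07% of 19200 genes. In that table the early prophase sums overlapped, at 30073 to 44537 in Cre controls and 27956 to 48850 in cKO, and so did the spermatogonial sums, at 13473 to 17649 and 12294 to 16434. The part of cell composition in the member results was not tested.

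Across all 16 libraries, with log2 CPM centred within each kit, the genes whose pattern was most like a member's were found among 12174 genes with a mean of at least 5 CPM. For H2afx these were Prss50 (r = 0.984), Tpgs2 (r = 0.977) and Ccdc36 (r = 0.975). For Hist1h2aa they were Ints8 (r = 0.967), Hist1h4c (r = 0.965) and Nek1 (r = 0.964), and for Hist1h2ba they were Cdr2 (r = 0.944), Uchl3 (r = 0.940) and Nup62 (r = 0.935). These values describe 16 libraries that share 2 ages, 2 kits and a genotype, and carry no test.

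How reads were assigned bears on single members. Of all 50-base windows of a transcript, 63.8% of those of H2afz, 38.2% of those of Hist1h2ba, 29.2% of those of H3f3a, 23.8% of those of Hist1h2aa and 9.66% of those of H2afx also occur in another annotated transcript. Matches on either strand were counted. For Hist1h2ba those include other H2B genes such as Hist1h2bj, and for H3f3a they include H3f3c. For Hist1h2aa, H2afx and H3f3a they also include a gene on the other strand of the same locus (Gm44344, Gm44335 and Gm17275). Hist1h1t shares none (0%). Hist1h2aa, H2afx, H2afy, H3f3a, H1f0 and H1fx also overlap an exon of a gene on the other strand, and the library kit keeps strand but the setting used in counting is not given in the sources used here. Reads of those 6 members and of their partners therefore cannot be separated with certainty.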

How the data were processed

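RNA-seq was made from 16 testis libraries. The authors deposited 4 tables, each with 1 age and 1 control type, of normalized counts, a signal in which each library's gene reads are divided by its size factor, set within the table. The submitters' processing notes name Trim Galore, STAR, HTSeq, DESeq2 and GRCm39, and their versions and the annotation release are not given in the sources used here. In every column 100% of values above 0 were whole multiples of 1 read within 0.01 of a read, so reads were recovered; cKO libraries 1 and 2 held identical reads in both tables of an age and were counted once. STAR's summary rows were left out, and 0 columns lacked a sample.

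The main test was limma 3.58.1 (R 4.3.3, eBayes with trend) on log2(value + 1), over genes at 10 or more in at least 2 libraries. P-values were adjusted by Benjamini-Hochberg over all genes tested. This scale understates changes of low genes. Ages and kits were compared on the recovered reads as log2 CPM, with TMM factors and a prior count of 1, after edgeR's expression filter. edgeR 4.0.16, on the recovered reads, called 6983 genes at P16 against control and limma 6939. DESeq2 1.42.0, other pseudocounts, filters and scalings, blocks, kit as a covariate and leaving out each library were alternatives. The limma and edgeR steps were tested on simulated data.

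The members, lists and tests were chosen with earlier results of these data known. All members are named, Ythdc2 as a check, and from each related list up to 4 called genes with the largest absolute change at P16; Hist1h1b, Hira, Ubn1, Cabin1, Daxx, Atr, Mdc1, Prdm9 and Stra8 were named after their values were seen. Counts have no molecular identifiers, so depth bounds counting error only.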

Additional observations from a re-analysis of the deposited data

Results flagged for a closer look

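The cKO effect differed between P16 and P14, by a test of the difference itself in the 8 libraries of the first kit, for 2 of the 10 histone variants. For H2afx the effect at P16 minus that at P14 was -1.32 on the log2 scale (SE 0.131, limma adjusted p = 0.000785), and both cKO libraries were lower than both controls at P16 while the groups overlapped at P14. For Hist1h2aa the difference was -1.01 (SE 0.133, limma adjusted p = 0.00335), with the same pattern of overlap. Each was called with edgeR and DESeq2 and with any 1 of the 8 libraries left out, and neither was called with eBayes without trend. In the libraries of the second kit, the third cKO library had H2afx at 61.8% of the Cre control mean at P16 and 99.5% at P14, and Hist1h2aa at 91.3% and 110.1%. Over the 4 P16 Cre control libraries, 11 genes were checked for an outlying library by Dixon's test, with 0 past its 95% critical value; replicate 1 was the highest for Hist1h2aa and Hist1h1t without passing it.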

How the results depend on the processing

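Over the alternatives, 1007 of 1110 member values kept their side of the threshold, 76 lost a call, 27 gained one and 0 reversed. These totals include members not called in the fit reported, which had no call to lose. Hist1h1t lost its call against control at P16 in 5 of 14 alternatives. Against Cre control at P16, H2afx and H1fx each lost theirs in 10 of 19, and H2afz in 11. H2afx, Hist1h2aa and H1fx kept their calls against control at P16 under all 14 alternatives, and H2afx at values from -1.57 to -1.34. Groups of 1 to 4 libraries limit the precision.

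Without the eBayes trend, fewer genes and members were called: at P16 against control 1806 genes and 3 members, at P14 0 genes, for the difference between ages 136 and 0, for control P16 against P14 2164 and 2, for cKO P16 against P14 3 members, for Cre control P16 against P14 576 and 0, and against Cre control at P16 32 and 0. Without a filter, P14 against control gave 0 genes, the difference 727 (122 higher, 605 lower), control with age 2 members, Cre control with age 49 genes and 0 members, and Cre control at P16 917 genes. DESeq2 called 6 genes at P14 against control, 5 at P14 against Cre control and 4140 at P16 against Cre control. There, a pseudocount of 10 gave 3277 (1283 higher, 1994 lower) and quantile normalization 3094 (1795 higher, 1299 lower; it moved the median of all genes from -0.04 to 0.10), against 825 higher and 916 lower in the fit reported. With kit as a covariate 1 gene and 0 members were called, and within the second kit 1 and 0. With the libraries of 1 run, Cre control with age gave 754 genes and 1 member.

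With the replicate number as a block, P14 against control gave 5 genes, the difference 2242, control with age 7 members, Cre control with age 1 member, Cre control at P16 0 genes and 0 members, and Cre control at P14 6966 genes and 8 members, where the block removes the cKO library numbered 3, which no control shares. Same-numbered libraries correlated at 0.203 at P14 and 0.0798 at P16 (2 pairs each), -0.01 across ages in control and 0.07 in cKO, so the numbers were not taken as pairs.

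Leaving out 1 library at a time gave these ranges of genes and members called: P16 against control 4591 to 7045 and 5 to 8; P14 against control 0 to 11 genes and 0 members; the difference 273 to 3087 and 2 to 4; control with age 1651 to 2640 and 1 to 2; cKO with age 3444 to 5352 and 4 to 6; Cre control with age 596 to 2769 and 0 to 3; Cre control at P16 0 to 9427 and 0 to 4; Cre control at P14 0 to 6256 and 0 to 5. Where this left a single library in a group, it was assumed to vary like the others. Among members, Hist1h2ba at P16 lost its call only without the trend (limma adjusted p = 0.0577), and Hist1h1t also without a filter (limma adjusted p = 0.12). Calls were also gained, by H1f0 against control at P16 without cKO replicate 2 (-0.14) and by the Hist1h1t difference between ages without cKO replicate 1 of P14 (-0.62).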

Other observations

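Within the second kit, H3f3b stood at 16291 to 17972 in the 4 P16 Cre controls and at 12851 in the third cKO library (log2 CPM change -0.39, limma adjusted p = 0.259), and H2afz at 3699 to 4558 against 3172. In the first kit the same genes had changes of -0.11 and 0.04. In the P14 table with Cre controls, H1f0 stood at 1046 and 1402 in the Cre controls, at 1641 and 1862 in cKO libraries 1 and 2, which are of the first kit, and at 1570 in the third cKO library, the one that shares the kit of these controls (log2 change over the 3 libraries 0.48, limma adjusted p = 0.479). Within the first kit its P14 change was 0.03.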
